A study of Mus musculus with 17 samples.

Results

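The p53 family and its direct regulators were examined as 8 genes chosen by name: the family genes Trp53, Trp63 and Trp73, and the regulators Mdm2, Mdm4, Ppm1d, Cdkn2a and Usp7. Of these 8 genes, 7 had a row in the raw count tables of model 1 or model 2, which together hold 28600 genes. The table of model 1 held 7 of them and that of model 2 held 6. Trp63 had no row in either table and Trp73 had one only in that of model 1. The other 6 genes passed the filter on low counts in both models.

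RNA-seq was performed on erythroid blasts, 1 library per mouse, from 17 mice that all carry the TgSpi1 transgene, a source of excess SPI1 (PU.1), a transcription factor of blood cells. Cells were kept in culture with erythropoietin (EPO) and diluted 2 days before the RNA was taken, so the libraries describe cultured cells and not cells straight from the animal. What drives the transgene was not given in the sources used here. In model 1, on a mixed DBA2J and FVB/N background, TgSpi1FA+/+ mice have intact Fanca and TgSpi1FA−/− mice lack it. Fanca encodes a subunit of the Fanconi anaemia core complex that repairs DNA interstrand crosslinks. Libraries are named by stage and mouse number as in the sample titles. Model 1 had 4 preleukaemic TgSpi1FA+/+ libraries, which were preleukemic_445, preleukemic_479, preleukemic_451 and preleukemic_138. It had 3 preleukaemic libraries of TgSpi1FA−/− mice, preleukemic_77, preleukemic_224 and preleukemic_40, and 3 leukaemic ones, leukemic_26, leukemic_28 and leukemic_39. In model 2, on a DBA2J background, all mice were TgSpi1FA+/+, with 4 preleukaemic mice (preleukemic_633, preleukemic_663, preleukemic_812 and preleukemic_837) and 3 leukaemic mice (leukemic_601, leukemic_606 and leukemic_921) whose leukaemic cells arose after serial blood transfusion. The ages of the mice were not given in the sources used here. Strain, RNA input (400 ng in model 1 and 300 ng in model 2) and fragmentation time (8 min and 2 min) differ between the models and cannot be told apart from the model itself. The column and source names of preleukemic_77, preleukemic_224 and preleukemic_40 call these libraries leukaemic, but their titles do not, and the titles were followed.

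The protein p53 is a transcription factor that is kept scarce in unstressed cells because MDM2, a ubiquitin ligase, marks it for degradation, helped by its relative MDM4, which also blocks the activation domain of p53. DNA damage or oncogene activity interrupts this control, p53 accumulates and it induces genes for cell cycle arrest and apoptosis, and also Mdm2 itself, which closes a feedback loop. ARF, one of the proteins made from Cdkn2a, inhibits MDM2. The phosphatase WIP1 (Ppm1d) reverses damage signals on p53, and the deubiquitinase USP7 removes ubiquitin from p53, MDM2 and MDM4. Loss of p53 is common in erythroleukaemia, and the levels of these genes describe messenger RNA and not protein.

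Library totals ranged from 29964576 to 38217654 counts in model 1 and from 37726753 to 40514205 in model 2. Levels are given as CPM, the count relative to the library total after scaling by edgeR's TMM factors. Fanca was at 28.2 to 83.5 CPM in the TgSpi1FA+/+ mice of model 1 and at 0.615 to 2.30 CPM in the TgSpi1FA−/− mice. Spi1 ranged from 219.7 to 1061 CPM in 9 libraries of model 1 and was at 3.88 CPM in leukemic_39, and at 4.67 CPM in the same mouse in a second count table. This level goes against the label of a Spi1 transgenic library. The leukaemic changes of Trp53 and Mdm4 in model 1, the genes around Mdm4 and the list counts are therefore also given without leukemic_39. Other values, such as the Mdm4 to Mdm2 ratio and the changes of single list genes, include leukemic_39. The counts of preleukemic_445 and preleukemic_479 were far more alike than those of other pairs within a group (chi-square divided by its degrees of freedom 9.18, against 126 to 411), though beyond sampling noise, and both were kept. All 8 erythroid markers had a mean of at least 1 CPM in every group, and their summed level was 1961 to 3223 CPM in TgSpi1FA−/− leukaemic cells, 3089 to 4148 CPM in TgSpi1FA−/− preleukaemic cells and 3523 to 4910 CPM in TgSpi1FA+/+ preleukaemic cells. In model 2 it was 2026 to 3796 CPM in leukaemic and 3810 to 4982 CPM in preleukaemic cells, so the leukaemic libraries were lower without overlap there. The summed levels of the myeloid, B cell, and stromal and endothelial markers that had a row were at most 0.937, 0.228 and 1.84 CPM, and Pax5 was at 0 in every preleukaemic library of model 1. Summed T cell markers were at 3.81 to 5.26 CPM in TgSpi1FA−/− leukaemic and 0.819 to 1.23 CPM in TgSpi1FA−/− preleukaemic cells. In TgSpi1FA+/+ preleukaemic cells of model 1 they were at 0.865 to 3.63 CPM. Summed mast cell markers were at 59.2 to 69.7 CPM in leukaemic and 2.57 to 55.7 CPM in preleukaemic cells of model 2. Summed megakaryocyte markers were at 166 to 250 CPM (n = 3) in TgSpi1FA−/− leukaemic cells against 31.1 to 39.9 CPM (n = 3) in TgSpi1FA−/− preleukaemic cells. The TgSpi1FA+/+ preleukaemic cells of model 1 ranged from 43.6 to 192 CPM and overlapped with the leukaemic ones. The part of these markers in the results was not tested.

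Per kilobase of exon, the order of the levels in TgSpi1FA+/+ preleukaemic cells of model 1 was Cdkn2a, Trp53, Usp7, Mdm2, Ppm1d and Mdm4. Cdkn2a was at 186 ± 60.0 CPM per kb (SD, n = 4), Trp53 at 83.3 ± 62.1 and Usp7 at 55.6 ± 4.95. Mdm2 was at 15.9 ± 1.27, Ppm1d at 13.4 ± 2.61 and Mdm4 at 5.92 ± 0.398 CPM per kb. Neighbours in this order overlapped within their spread, except that Usp7 stood above Mdm2 and Ppm1d above Mdm4. The length is that of all annotated exons together, which is 14798 bases for Mdm4 and 1172 bases for Cdkn2a, so a gene with long alternative exons is placed low.

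Among the 6 genes tested, Mdm4 was the only one called in any comparison, where a call needs an adjusted p (Benjamini-Hochberg) under 0.05 in edgeR's quasi-likelihood test and a fold change of at least 1.5. Between TgSpi1FA−/− leukaemic and TgSpi1FA−/− preleukaemic cells, 1 of 6 members was called, beside 13.3% of all genes tested. Between TgSpi1FA−/− leukaemic and TgSpi1FA+/+ preleukaemic cells it was again 1 of 6, beside 7.01% of all genes. No member was called between the genotypes at the preleukaemic stage (0.00747% of all genes, which is 1 gene) or between the stages of model 2, where 0% of all genes were called and 3 of 6 members had an unadjusted p under 0.05, as did 2587 of 12970 genes. DESeq2's Wald test called 470 genes there. None was called for the difference between the leukaemic changes of the models, for which 4.61% of all genes were called.

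Counted by libraries alone, 3 of 6 members (Mdm2, Mdm4 and Usp7) did not overlap between the leukaemic and preleukaemic cells of TgSpi1FA−/− mice, beside 38.7% of all genes. For Mdm2 the gap was very small, with 86.63 CPM in leukemic_39 against 86.56 CPM in preleukemic_40. Between TgSpi1FA−/− leukaemic and TgSpi1FA+/+ preleukaemic cells, Mdm4 and Usp7 did not overlap, beside 25.7% of all genes. Mdm2 and Usp7 did not overlap between the stages of model 2, beside 20.1% of all genes. Between the genotypes at the preleukaemic stage 0 of 6 members were free of overlap, beside 8.53% of all genes. These counts are of the order of the background.

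**Figure D1:**
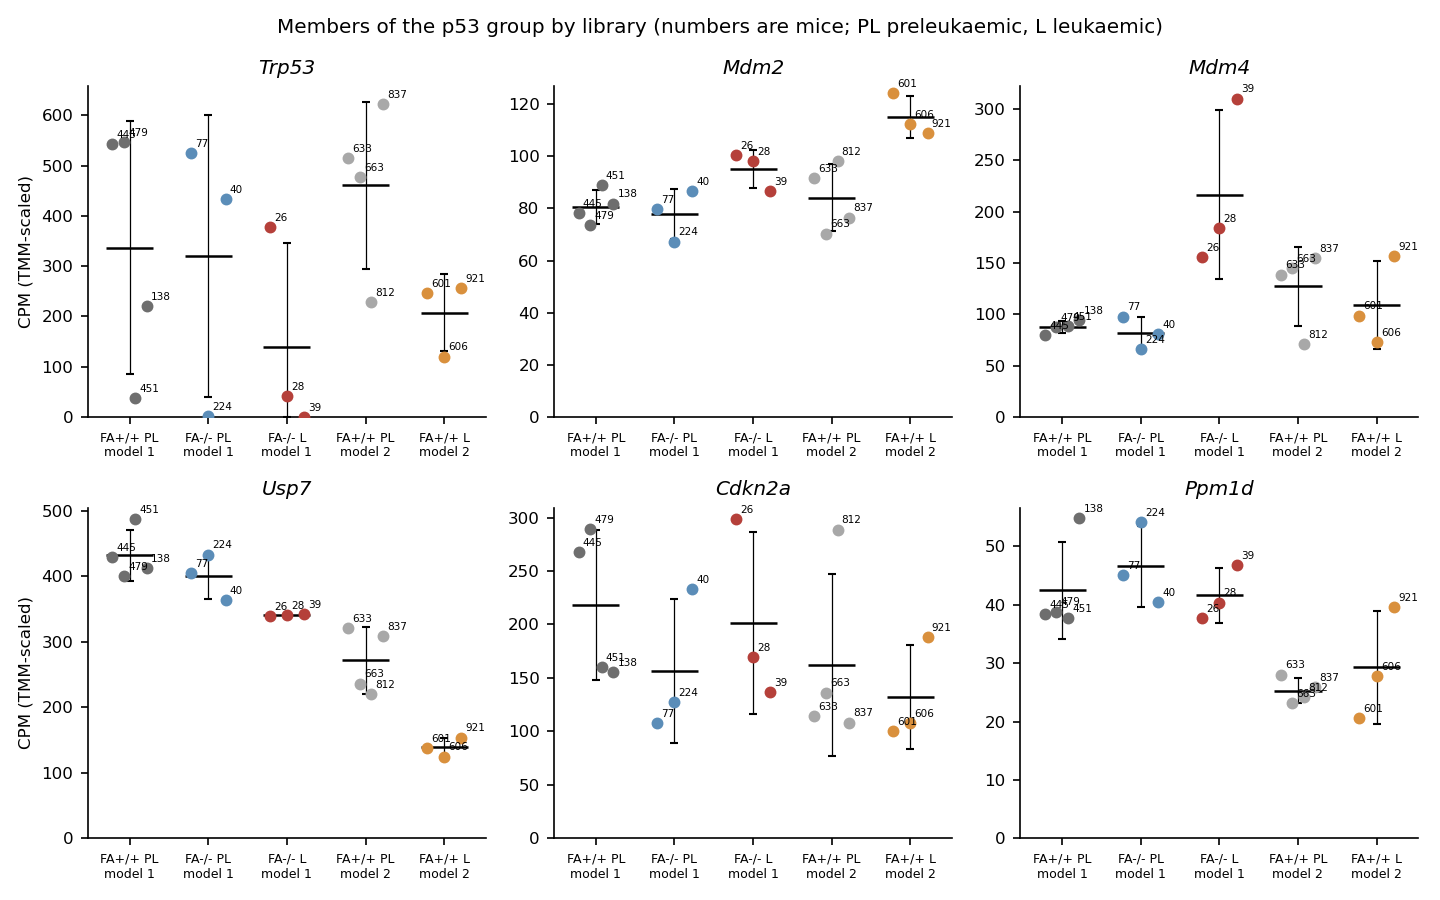
Level of the 6 tested members in each library, in TMM-scaled CPM, by group. Points are single mice with their numbers, horizontal bars are group means and vertical bars are the SD, drawn no lower than 0. Trp53 spans from 0 in leukemic_39 to 547 CPM in preleukemic_479 within model 1, whereas the 3 TgSpi1FA−/− leukaemic mice stand above the other libraries of model 1 for Mdm4.

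Trp53, the family's founding gene, lies at chr11:69580359-69591873 on the plus strand (GRCm38). Wrap53, whose product is needed for the assembly of telomerase and Cajal bodies, starts on the opposite strand next to it. The promoter windows that RefSeq (GRCm38.p6) gives to both genes share 208 bases, so the window of Trp53 is printed because it also serves the neighbour whose level is described with it. It runs 5′ to 3′ from 250 bases before to 50 bases after the start, at chr11:69580109-69580408, and capitals mark, in order, a match to the p53 half-site and the E-box CACGTG.
Trp53: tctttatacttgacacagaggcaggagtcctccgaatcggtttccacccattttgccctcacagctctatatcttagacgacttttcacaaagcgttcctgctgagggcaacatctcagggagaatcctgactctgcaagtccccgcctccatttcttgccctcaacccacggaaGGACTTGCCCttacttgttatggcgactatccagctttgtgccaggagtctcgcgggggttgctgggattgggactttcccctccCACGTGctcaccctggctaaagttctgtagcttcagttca
Of the 32817 promoter windows, 7.15% hold the E-box CACGTG on either strand and 8.36% a p53 half-site, a degenerate motif of 10 letters that was searched on both strands. Neither the PU-box GAGGAA, the core that SPI1 recognises (28.3% of windows), nor the GC box GGGCGG (35.6% of windows) was found in the window of Trp53. A match is a description of letters only.

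The level of Trp53 differed between single mice far more than between groups. In TgSpi1FA+/+ preleukaemic cells it was 542 CPM in preleukemic_445, 547 in preleukemic_479, 37.8 in preleukemic_451 and 220.3 in preleukemic_138. In TgSpi1FA−/− preleukaemic cells it was 526 CPM in preleukemic_77, 0.789 in preleukemic_224 (27 counts) and 433 in preleukemic_40. In TgSpi1FA−/− leukaemic cells it was 377 CPM in leukemic_26, 41.4 in leukemic_28 and 0 in leukemic_39. The count of 0 in leukemic_39 allows a level of up to 0.0761 CPM (3 counts) in that library. This floor covers counting error only, and the second table held 12 counts (0.328 CPM) for the same mouse. Each group of model 1 thus held a mouse with a Trp53 level at least 10 times below that of another mouse of the group, and the groups overlapped. In a bulk library, fewer cells with the transcript and less transcript per cell cannot be told apart. The paper's exome sequencing found Trp53 mutations in blasts of both genotypes, and their part in these levels was not tested.

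With this spread, no comparison of Trp53 in model 1 could be resolved. The log2 fold change between TgSpi1FA−/− leukaemic and preleukaemic cells was −1.20 (SE 2.08, 95% interval −5.88 to 3.49, edgeR adjusted p = 0.732), and −0.58 without leukemic_39 (edgeR adjusted p = 0.874). Between the genotypes at the preleukaemic stage it was −0.07 (95% interval −4.40 to 4.25, edgeR adjusted p = 0.995). In model 2, Trp53 was at 514 CPM in preleukemic_633, 477 in preleukemic_663, 229 in preleukemic_812 and 623 in preleukemic_837 at the preleukaemic stage. At the leukaemic stage it was at 246 CPM in leukemic_601, 120.1 in leukemic_606 and 257 in leukemic_921. The 3 leukaemic values lay below 3 of the 4 preleukaemic ones and overlapped with preleukemic_812. The log2 fold change of Trp53 in model 2 was −1.15 (SE 0.40, 95% interval −2.08 to −0.22), with an adjusted p of 0.188 in edgeR, so it was not called.

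Genes next to Trp53 were low in some of the same libraries. Wrap53, which starts 0.104 kb before Trp53 on the opposite strand, was at 19.998 to 32.5 CPM in 8 libraries of model 1, at 4.29 CPM in leukemic_28 and at 0 in leukemic_39. Atp1b2 encodes a subunit of the sodium and potassium pump and lies on the opposite strand, 19.4 to 25.6 kb after the start of Trp53. It was at 0.146 CPM in preleukemic_224, at 32.3 in leukemic_28, at 42.2 in leukemic_39 and at 104.6 to 320.5 CPM in the other 7 libraries. Wrap53 was at 27.8 CPM in preleukemic_224, where Trp53 and Atp1b2 were both below 1 CPM. Fxr2, which begins 52.6 kb away and was looked at after its values were seen, lay between 83.0 and 183 CPM in all 10 libraries, with preleukemic_224 the lowest. Over the 90 tested genes within 2 Mb of Trp53, the median log2 level relative to the TgSpi1FA+/+ preleukaemic mean was −0.0021 in preleukemic_224, 0.06 in leukemic_28 and −0.0033 in leukemic_39. Among the genes named so far, the low values stood in Trp53, Wrap53 and Atp1b2. The median of the wider region was near 0, but it cannot show where low values of a few genes end. In the second table, Efnb3, which lies 26.3 kb before Trp53 and was looked at after its values were seen, was also low, at 0.00690 CPM in leukemic_28 and 0.0546 CPM in leukemic_39 against 1.97 to 12.9 CPM in the other 5 mice. Between groups, Wrap53 did not pass the test in model 1 (log2 fold change −1.35 between TgSpi1FA−/− leukaemic and preleukaemic cells, edgeR adjusted p = 0.530) or in model 2 (0.08, edgeR adjusted p = 0.892), where it ranged from 14.7 to 22.03 CPM.

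**Figure D2:**
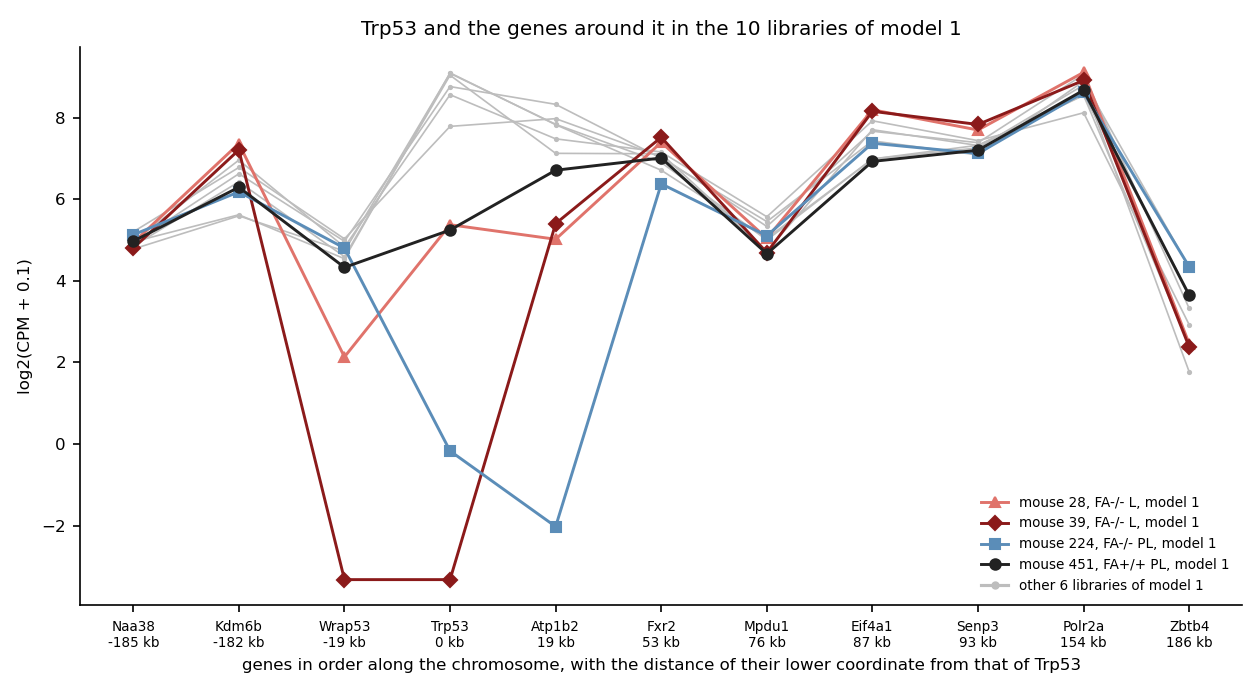
Level of Trp53 and of genes within 200 kb that reached 10 CPM in at least 1 library of model 1, as log2(CPM + 0.1) on the vertical axis, with genes in chromosomal order on the horizontal axis and 1 line per library. In leukemic_39 the line falls at Wrap53 and Trp53, in preleukemic_224 at Trp53 and Atp1b2, in leukemic_28 at Wrap53, Trp53 and Atp1b2, and in preleukemic_451 at Trp53.

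The other family genes were hardly detected. Trp73, which encodes the p53 relative p73 and lies at chr4:154056253-154140208, had 0 counts in 8 of 10 libraries of model 1, 1 count in preleukemic_224 and 4 counts in leukemic_39. Trp63, which encodes p63, a regulator of stratified epithelia, had a row only in a second count table of model 1, with 1 count in leukemic_28 and 4 counts in preleukemic_445. The second table also held 3 to 6 counts of Trp73 in leukemic_26, leukemic_28 and preleukemic_451. At these depths both genes lay at or near the floor of 3 counts.

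Mdm4 encodes the inhibitor that binds the activation domain of p53 and forms heterodimers with MDM2. The gene lies at chr1:132959484-133030561 on the minus strand. Its level was 79.9 CPM in preleukemic_445, 87.7 in preleukemic_479, 88.6 in preleukemic_451 and 94.2 in preleukemic_138. In TgSpi1FA−/− preleukaemic cells it was 97.7 CPM in preleukemic_77, 66.2 in preleukemic_224 and 80.9 in preleukemic_40. In TgSpi1FA−/− leukaemic cells it was 156 CPM in leukemic_26, 184 in leukemic_28 and 310.3 in leukemic_39. Every leukaemic library of model 1 stood above every preleukaemic one, and leukemic_39 was the highest.

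Mdm4 rose 2.65-fold between TgSpi1FA−/− preleukaemic and leukaemic cells (log2 fold change 1.41, SE 0.25, 95% interval 0.84 to 1.97), with an adjusted p of 0.0127 in edgeR. Against TgSpi1FA+/+ preleukaemic cells the rise was 2.47-fold (log2 fold change 1.31, SE 0.23), with an adjusted p of 0.0186 in edgeR. Both comparisons share the leukaemic libraries. Between the genotypes at the preleukaemic stage the log2 fold change of Mdm4 was −0.10 (95% interval −0.62 to 0.42, edgeR adjusted p = 0.943). The first call was lost without preleukemic_224 (edgeR adjusted p = 0.0503, log2 fold change 1.29). The second was lost without leukemic_28, preleukemic_445 or preleukemic_479 (edgeR adjusted p = 0.0597, 0.0610 and 0.0610) and with preleukemic_445 and preleukemic_479 summed as 1 library (edgeR adjusted p = 0.0613). In the second count table of model 1, which holds 7 of the mice, its log2 fold change was 0.20 (edgeR adjusted p = 0.842). Without leukemic_39, the highest library, the log2 fold change against TgSpi1FA−/− preleukaemic cells was 1.08 with an adjusted p of 0.0209 in edgeR, and against TgSpi1FA+/+ preleukaemic cells it was 0.97 with an adjusted p of 0.0384 in edgeR.

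In model 2, Mdm4 was at 139 CPM in preleukemic_633, 145 in preleukemic_663, 70.6 in preleukemic_812 and 155 in preleukemic_837 before leukaemia, and at 98.5 CPM in leukemic_601, 72.8 in leukemic_606 and 156 in leukemic_921 in leukaemic cells. The groups overlapped over their whole range, and the log2 fold change was −0.22 (SE 0.35, 95% interval −1.03 to 0.59, edgeR adjusted p = 0.758). The difference between the leukaemic changes of Mdm4 in the models was 1.61 on the log2 scale (SE 0.45, 95% interval 0.66 to 2.56). It was not called, with an adjusted p of 0.0528 in edgeR. It was called with DESeq2 size factors (adjusted p = 0.0477 in edgeR), with DESeq2's Wald test (adjusted p = 0.0107), without leukemic_26 (edgeR adjusted p = 0.0360) and without preleukemic_812 (edgeR adjusted p = 0.0214). In the other 13 alternatives it was not called, with log2 differences of 1.26 to 1.97 and edgeR adjusted p of 0.0570 to 0.117.

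The ratio of Mdm4 to Mdm2 counts within a library, which no library scaling can move, was 0.997 to 1.19 in TgSpi1FA+/+ and 0.935 to 1.23 in TgSpi1FA−/− preleukaemic cells. In TgSpi1FA−/− leukaemic cells it was 1.55 in leukemic_26, 1.87 in leukemic_28 and 3.58 in leukemic_39. The mean log2 ratio differed by 1.07 between TgSpi1FA−/− leukaemic and preleukaemic cells (two-sided exact permutation p = 0.1, the smallest that 3 against 3 libraries allow). Against TgSpi1FA+/+ preleukaemic cells it differed by 1.005 (two-sided exact permutation p = 0.0571, the smallest that 3 against 4 allow), whereas in the second table the difference was 0.17 (two-sided exact permutation p = 0.8, n = 3 and 4). In model 2 the ratio lay between 0.718 and 2.06 before leukaemia and between 0.647 and 1.44 in leukaemic cells, with a difference in log2 of −0.69 (two-sided exact permutation p = 0.229) that did not exceed the spread.

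RefSeq gives Mdm4 2 promoter windows. The window of the start inside the gene model is printed to set the member that rose beside Trp53 and Mdm2. It lies at chr1:133025367-133025666 on the minus strand and holds, like the other, none of the 4 motifs searched, so no letter is in capitals.
Mdm4: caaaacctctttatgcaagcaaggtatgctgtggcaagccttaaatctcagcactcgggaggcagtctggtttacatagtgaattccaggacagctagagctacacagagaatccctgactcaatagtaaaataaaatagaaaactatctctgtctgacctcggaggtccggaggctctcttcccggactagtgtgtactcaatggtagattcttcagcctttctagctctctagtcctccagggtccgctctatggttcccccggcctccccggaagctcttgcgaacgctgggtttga
No match says only that these letters are not in this window.

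Genes around Mdm4 moved with it. Of the 45 other tested genes within 2 Mb, 35 had a higher level in the leukaemic cells of TgSpi1FA−/− mice than in the preleukaemic ones. Of the 45, 12 were called, 11 upward and 1 downward, beside 13.3% of all genes called. The median log2 fold change of the 45 was 1.08, against −0.0012 over all genes. Without leukemic_39 this median was 0.45. Library by library, the median log2 level of these 45 genes relative to the TgSpi1FA+/+ preleukaemic mean was 0.06 in leukemic_26, 0.48 in leukemic_28 and 1.49995 in leukemic_39. Mdm4 itself was 0.83, 1.07 and 1.83 above that mean in the same mice. In preleukemic_224, the preleukaemic library with the lowest Mdm4 level of model 1, the genes around it were at −0.57 and Mdm4 at −0.40. In preleukemic_77 and preleukemic_40 the neighbourhood was at 0.05 and −0.27 and Mdm4 at 0.16 and −0.11. In leukemic_26 the median within 2 Mb was thus near 0 beside a higher Mdm4 level, whereas in leukemic_39 and preleukemic_224 both lay on the same side. In model 2 the median log2 fold change of the 46 genes within 2 Mb of Mdm4 was −0.30, with 18 genes higher and 28 lower. The authors also called copy number from exome sequencing of TgSpi1FA+/+ and TgSpi1FA−/− blasts. Those calls were not used here, and the part of DNA copy number in these values was not tested.

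The pattern extended along the chromosome in single libraries. In leukemic_28, all 16 bins of 10 Mb that held 20 genes or more had a median above the TgSpi1FA+/+ preleukaemic mean, by 0.26 to 0.65 on the log2 scale. In leukemic_26 the 7 bins from 10 Mb before Mdm4 to the end of the chromosome lay above 0, from 0.02 to 0.36, and the 9 bins farther before it below 0, from −0.14 to −0.01. In leukemic_39 the bin that starts at Mdm4 had a median of 1.56 over 48 genes, the bin before it one of 0.77 and the bin after it one of −0.31, and the 4 bins from 70 to 30 Mb before Mdm4 had medians of 0.36 to 0.60. In preleukemic_224 all 7 bins from 10 Mb before Mdm4 to the end of the chromosome were low, from −0.67 to −0.49, and the 9 bins farther before it lay between −0.09 and 0.23. In the remaining preleukaemic libraries of model 1 no bin went beyond −0.25 or 0.18. Shifts of bins were also present in model 2, where Mdm4 did not rise, relative to the preleukaemic mean of that model. They ranged from −0.42 to 0.85 in leukemic_606, from −0.50 to 0.59 in leukemic_921 and from −0.09 to 0.47 in preleukemic_663. In the other libraries of model 2 the bins lay between −0.32 and 0.39. A transcript without a gene name, Gm29257, overlaps Mdm4 on the opposite strand and had 1 to 7 counts per library in model 1.

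**Figure D3:**
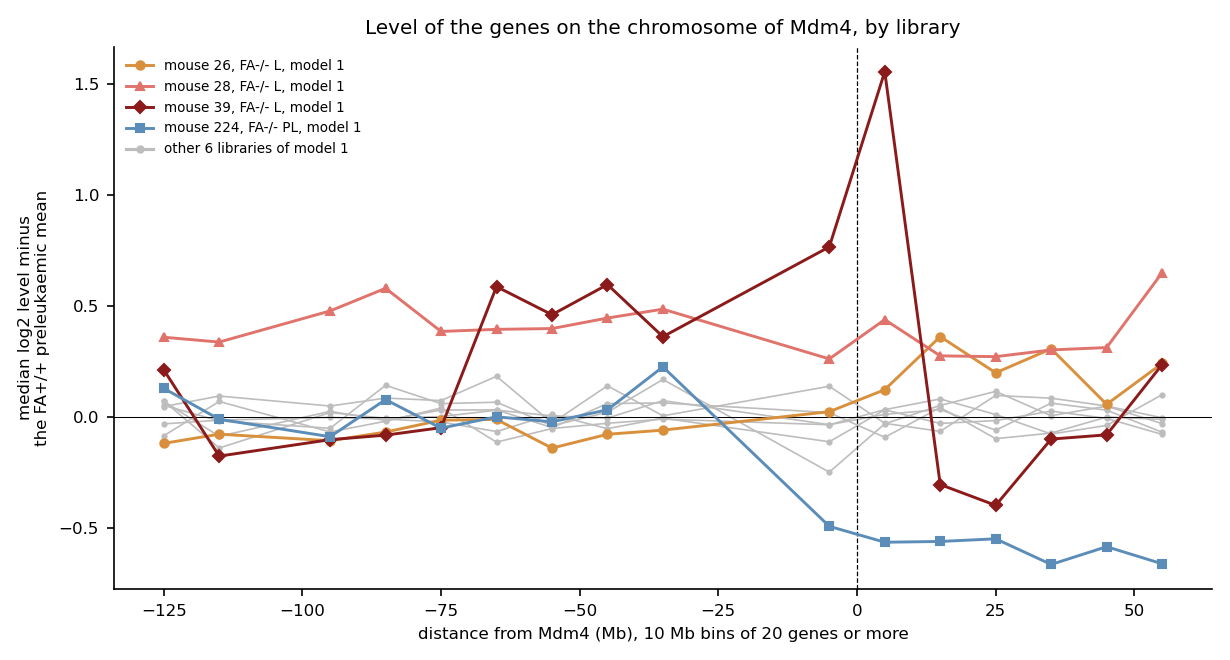
Median log2 level of the tested genes on the chromosome of Mdm4, minus the TgSpi1FA+/+ preleukaemic mean, in bins of 10 Mb by distance from Mdm4, with 1 line per library of model 1. The line of leukemic_39 peaks at 1.56 in the bin beginning at Mdm4 and is also raised before it, that of leukemic_28 is above 0 along the chromosome, and that of preleukemic_224 is at −0.49 or lower in the 7 bins around and after Mdm4.

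Mdm2, the ubiquitin ligase of p53 and one of its transcriptional targets, lies at chr10:117688875-117710758 on the minus strand. In model 1 it was at 73.6 to 88.9 CPM in TgSpi1FA+/+ preleukaemic cells, at 79.8, 67.3 and 86.6 CPM in preleukemic_77, preleukemic_224 and preleukemic_40, and at 100.4, 98.1 and 86.6 CPM in leukemic_26, leukemic_28 and leukemic_39. The level in leukemic_39, with no Trp53 counts, was within the range of the preleukaemic libraries, and preleukemic_224, with 27 Trp53 counts, had the lowest Mdm2 level of model 1. The log2 fold change between TgSpi1FA−/− leukaemic and preleukaemic cells was 0.29 (SE 0.13, 95% interval −0.01 to 0.58, edgeR adjusted p = 0.163). In model 2 Mdm2 was at 91.7, 70.4, 98.2 and 76.5 CPM in preleukemic_633, preleukemic_663, preleukemic_812 and preleukemic_837, and at 124, 112 and 109 CPM in leukemic_601, leukemic_606 and leukemic_921. The leukaemic libraries of model 2 thus lay above the preleukaemic ones, and the log2 fold change of Mdm2 was 0.45 (SE 0.18, 95% interval 0.05 to 0.86), with an adjusted p of 0.215 in edgeR. The difference between the changes in the models was −0.17 (95% interval −0.60 to 0.25, edgeR adjusted p = 0.609).

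The RefSeq promoter window of Mdm2 is at chr10:117710709-117711008 on the minus strand and is printed for the feedback loop with p53. Capitals mark a match to the p53 half-site, and the p53 response elements known in the first intron lie outside this window.
Mdm2: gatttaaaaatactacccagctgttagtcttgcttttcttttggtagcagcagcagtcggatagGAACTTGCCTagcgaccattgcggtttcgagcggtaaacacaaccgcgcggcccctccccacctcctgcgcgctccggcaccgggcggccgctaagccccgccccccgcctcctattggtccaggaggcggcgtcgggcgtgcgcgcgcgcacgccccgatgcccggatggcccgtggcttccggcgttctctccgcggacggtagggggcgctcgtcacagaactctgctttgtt
The window also holds 2 GC boxes, left in lower case.

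**Figure D4:**
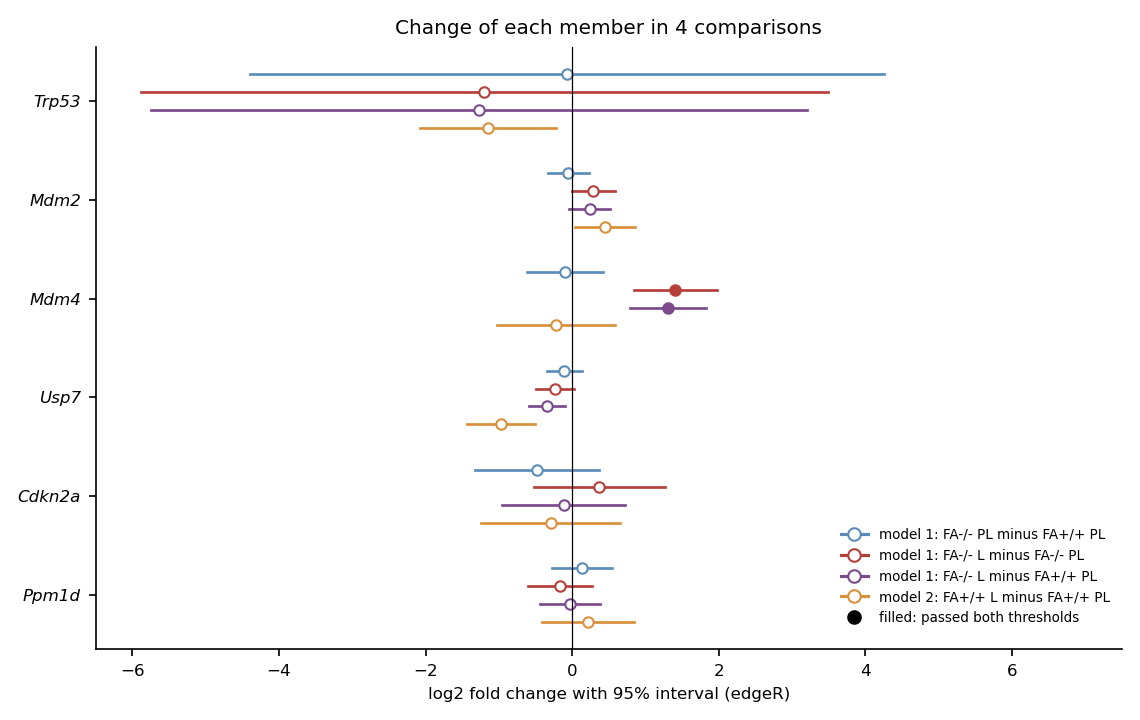
Log2 fold change of each tested member in 4 comparisons, with its 95% interval from edgeR, where filled symbols passed both thresholds. Mdm4 is filled in both comparisons with TgSpi1FA−/− leukaemic cells, the intervals of Trp53 in model 1 span more than 8 log2 units, and that of Usp7 lies below 0 in model 2.

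Usp7, the deubiquitinase that acts on p53, MDM2 and MDM4, lies at chr16:8689595-8792308 on the minus strand. In TgSpi1FA+/+ preleukaemic cells of model 1 it was at 428 CPM in preleukemic_445, 399.7 in preleukemic_479, 487 in preleukemic_451 and 412 in preleukemic_138. It was at 404 CPM in preleukemic_77, 433 in preleukemic_224 and 363 in preleukemic_40, and at 339 CPM in leukemic_26, 340.1 in leukemic_28 and 342 in leukemic_39. The leukaemic libraries were the lowest of model 1 and nearly equal, yet the fold was small, with a log2 fold change of −0.23 against TgSpi1FA−/− preleukaemic cells (95% interval −0.49 to 0.02, edgeR adjusted p = 0.189) and of −0.34 against TgSpi1FA+/+ preleukaemic cells (95% interval −0.58 to −0.10, edgeR adjusted p = 0.0797).

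In model 2, Usp7 was at 321 CPM in preleukemic_633, 236 in preleukemic_663, 219.8 in preleukemic_812 and 309 in preleukemic_837, and at 138.1 CPM in leukemic_601, 124 in leukemic_606 and 154 in leukemic_921. Every leukaemic library lay below every preleukaemic one. The preleukaemic mean was 1.96 times the leukaemic one (log2 fold change −0.97, SE 0.20, 95% interval −1.44 to −0.50), with an unadjusted p of 0.00147 and an adjusted p of 0.162 in edgeR, so Usp7 was not called. DESeq2's Wald test called it with an adjusted p of 0.0230, the only member among the 6, beside 3.45% of all genes that this test called. The difference between the changes of Usp7 in the models was 0.72 on the log2 scale (SE 0.21, 95% interval 0.26 to 1.17, edgeR adjusted p = 0.0608). It passed with DESeq2 size factors in edgeR (adjusted p = 0.0480), with DESeq2's Wald test (adjusted p = 0.00913) and in edgeR without preleukemic_812 (adjusted p = 0.0294). In the other 14 alternatives it did not pass (edgeR adjusted p = 0.0537 to 0.115). The 9 other tested genes within 2 Mb of Usp7 had a median log2 fold change of −0.20 in model 2.

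Cdkn2a encodes ARF, the inhibitor of MDM2, and p16INK4a, an inhibitor of the cyclin D kinases, from overlapping reading frames at chr4:89274471-89294653 on the minus strand, and gene counts do not separate these transcripts. It was at 268 CPM in preleukemic_445, 289 in preleukemic_479, 160.1 in preleukemic_451 and 155 in preleukemic_138. It was at 108 CPM in preleukemic_77, 127 in preleukemic_224 and 233 in preleukemic_40, and at 298 CPM in leukemic_26, 169 in leukemic_28 and 137 in leukemic_39. The groups of model 1 overlapped, and the log2 fold change between TgSpi1FA−/− leukaemic and preleukaemic cells was 0.37 (SE 0.40, 95% interval −0.53 to 1.26, edgeR adjusted p = 0.561). In model 2 it was at 114, 136, 289 and 108 CPM in preleukemic_633, preleukemic_663, preleukemic_812 and preleukemic_837 and at 100.1, 108 and 188 CPM in leukemic_601, leukemic_606 and leukemic_921 (log2 fold change −0.29, 95% interval −1.24 to 0.65, edgeR adjusted p = 0.724). Cdkn2a was thus expressed at 100.1 CPM or more in all 17 libraries of these tables, and the second table of model 1 held lower values, down to 8.70 CPM in preleukemic_445.

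Genes beside Cdkn2a were also expressed in each library. Cdkn2b, which encodes the related kinase inhibitor p15INK4b, was at 3.02 to 19.2 CPM in model 1 and at 5.74 to 14.4 CPM in model 2. Mtap, a methionine salvage enzyme often lost together with CDKN2A in tumours, was at 83.4 to 237 CPM in model 1 and at 68.0 to 159 CPM in model 2. Neither Cdkn2b (edgeR adjusted p = 0.942) nor Mtap (edgeR adjusted p = 0.550) passed the test between TgSpi1FA−/− leukaemic and preleukaemic cells.

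Ppm1d, which encodes the phosphatase WIP1 and is itself induced by p53, lies at chr11:85311244-85347066 on the plus strand. It was at 37.8 to 54.9 CPM in TgSpi1FA+/+ preleukaemic, at 40.5 to 54.1 CPM in TgSpi1FA−/− preleukaemic and at 37.7 to 46.7 CPM in TgSpi1FA−/− leukaemic cells. These ranges overlapped, and the log2 fold change between the last 2 groups was −0.16 (SE 0.19, 95% interval −0.60 to 0.27, edgeR adjusted p = 0.603). In model 2, Ppm1d was at 23.1 to 28.03 CPM in preleukaemic cells and at 20.5 CPM in leukemic_601, 27.8 in leukemic_606 and 39.6 in leukemic_921, with a log2 fold change of 0.21 (95% interval −0.41 to 0.84, edgeR adjusted p = 0.696).

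Of 42 other regulators of p53, 41 were tested, and 8 were called between the stages of TgSpi1FA−/− mice, 2 higher and 6 lower in leukaemic cells, beside 13.3% of all genes called. Of the 41, 22 had a higher and 19 a lower level, with a median log2 fold change of 0.03, against −0.0012 over all genes. Those called lower included Prkdc, the catalytic subunit of DNA-PK, which fell by 0.98 on the log2 scale, and the kinases Atr and Chek2, which fell by 0.91 and 0.78 (edgeR adjusted p = 0.0418, 0.0335 and 0.0347). Akt1, a kinase that activates MDM2, fell by 0.82 and Pml, which organises nuclear bodies, by 0.71 (edgeR adjusted p = 0.0257 and 0.0413). Ncl, which encodes nucleolin, rose by 0.70 on the log2 scale (edgeR adjusted p = 0.0184). Against TgSpi1FA+/+ preleukaemic cells, Trp53bp1, which encodes the damage sensor 53BP1, rose by 1.23 and Pml fell by 0.96 (edgeR adjusted p = 0.0265 and 0.0229), the only 2 of the 41 to be called. These counts rest on single libraries. Falls called between TgSpi1FA−/− stages numbered 0 without leukemic_28, preleukemic_224, preleukemic_40 or preleukemic_77 and 2 without leukemic_26 or leukemic_39, and rises numbered 1 to 4. Falls numbered 3 with DESeq2 size factors, 2 without the filter and 1 where the fit left out the TgSpi1FA+/+ libraries. DESeq2's Wald test called 4 of 42 higher and 5 lower. Against TgSpi1FA+/+ preleukaemic cells, 0 of the 41 were called without leukemic_28, leukemic_39, preleukemic_445, preleukemic_451 or preleukemic_479, with preleukemic_445 and preleukemic_479 summed as 1 library, and in a second count table of model 1 that is described further on. Higher and lower calls in that comparison were 3 and 2 without leukemic_26 and 1 and 3 without preleukemic_138. With DESeq2's Wald test they were 1 and 3 of 42. None of the 41 was called between genotypes at the preleukaemic stage or in model 2. Their median log2 fold change in model 2 was −0.41 with 28 of 41 lower, against −0.03 over all genes.

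Of 43 genes that p53 is known to induce, 39 were tested in model 1, and between TgSpi1FA−/− preleukaemic and leukaemic cells 4 were called higher and 4 lower, beside 13.3% of all genes called, with a median log2 fold change of 0.13. Bbc3, which encodes the proapoptotic protein PUMA, was at 16.4 to 17.6 CPM in preleukaemic cells and at 29.5, 29.8 and 40.9 CPM in leukemic_26, leukemic_28 and leukemic_39, a log2 rise of 0.99 (SE 0.19, edgeR adjusted p = 0.0165). Btg2, an antiproliferative gene, rose by 1.64 on the log2 scale (SE 0.26, edgeR adjusted p = 0.0097), with values of 98.9, 83.7 and 124 CPM in the leukaemic libraries and 22.5 to 43.2 CPM in the preleukaemic ones. Btg2 lies 1.08 Mb from Mdm4, so it is also among the genes around Mdm4 that were called upward above. Perp, a membrane protein of desmosomes, had 0 counts in the 3 preleukaemic libraries and was at 10.8, 4.55 and 18.5 CPM in leukemic_26, leukemic_28 and leukemic_39. Phlda3, an inhibitor of AKT, was at 0.394 CPM in preleukemic_77, at 0 in preleukemic_224 and preleukemic_40, and at 25.8, 26.7 and 66.3 CPM in leukaemic cells (edgeR adjusted p = 0.0322 for Perp and 0.0477 for Phlda3). Perp and Phlda3 were also at 0 in 1 or more TgSpi1FA+/+ preleukaemic libraries and reached 0.825 and 16.6 CPM in others of that group.

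Other induced genes went down. Ccng1, which encodes cyclin G1, was at 181, 161 and 221 CPM in preleukemic_77, preleukemic_224 and preleukemic_40 and at 83.1, 51.6 and 36.2 CPM in leukemic_26, leukemic_28 and leukemic_39, a log2 fold change of −1.72 (SE 0.31, edgeR adjusted p = 0.0138). Trp53inp1, a stress protein that promotes autophagy and apoptosis, fell by 2.89 on the log2 scale (SE 0.51, edgeR adjusted p = 0.0125). Tap1, a peptide transporter of antigen presentation, fell by 1.51 and Apaf1, the scaffold of the apoptosome, by 0.92 (edgeR adjusted p = 0.0375 and 0.0257). The counts of higher and lower calls were 2 and 1 without leukemic_28, 3 and 2 without leukemic_39 and 1 and 2 without preleukemic_224. They were 2 and 2 without preleukemic_40 or preleukemic_77, and 4 and 7 without leukemic_26. With DESeq2's Wald test they were 7 and 5 of 42 genes.

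Cdkn1a, which encodes p21, the inhibitor of cyclin-dependent kinases that is the classical p53 target, was at 83.8 CPM in leukemic_26, 22.6 in leukemic_28 and 5.91 in leukemic_39. It was at 11.9 CPM in preleukemic_77, 3.74 in preleukemic_224 and 33.2 in preleukemic_40, and at 12.2 to 21.9 CPM in TgSpi1FA+/+ preleukaemic cells. The 2 libraries of model 1 with the lowest Trp53 levels, preleukemic_224 and leukemic_39, also had the lowest Cdkn1a levels. By contrast, preleukemic_451, with 37.8 CPM of Trp53, had 12.2 CPM of Cdkn1a, and leukemic_28 had 22.6 CPM. In leukemic_28, Trp53 was at 41.4 CPM here and at 0.641 CPM in a second count table of model 1. The log2 fold change of Cdkn1a between TgSpi1FA−/− leukaemic and preleukaemic cells was 1.204 (SE 0.92, edgeR adjusted p = 0.402), and in model 2 it was 0.32 (edgeR adjusted p = 0.788).

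Against TgSpi1FA+/+ preleukaemic cells, 2 of the 39 induced genes were called higher (Bbc3 and Btg2) and 5 lower, beside 7.01% of all genes called, with a median log2 fold change of 0.16. Gdf15, a stress cytokine, was among the 5 but had only 13 to 26 counts per library in TgSpi1FA+/+ preleukaemic cells and 1 to 4 counts in TgSpi1FA−/− leukaemic cells. None of the 39 was called in this comparison without leukemic_28, leukemic_39 or preleukemic_451. None of 38 was called without preleukemic_445 or preleukemic_479 or with both summed. Higher and lower calls were 3 and 7 without leukemic_26 and 2 and 6 without preleukemic_138. DESeq2's Wald test gave 6 and 6 of 42. With the second table, calls were made for 1 of 40, which was higher, with a median of −0.08. In model 2, 37 induced genes were tested and 0 were called, with a median log2 fold change of 0.18. Ccng1 was the only 1 of 40 whose leukaemic change differed between the models (−2.13 on the log2 scale, SE 0.51, edgeR adjusted p = 0.0378).

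A second count table of 7 mice of model 1 gave other values for some members. Its library totals ranged from 35497594 to 171572736 counts. For each mouse, the levels of 13078 genes centred over the 7 mice were correlated between the tables, across genes that are not independent. In 6 of the 7 mice the library was closest to its own mouse, whereas preleukemic_445 of the first table was closer to preleukemic_479 of the second (r = 0.62) than to preleukemic_445 (r = 0.52). In the second table preleukemic_445 and preleukemic_479 differed as other pairs did (chi-square divided by its degrees of freedom 390).

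In the second table Trp53 was at 398 CPM in leukemic_26, 0.641 in leukemic_28 and 0.328 in leukemic_39, and at 339 CPM in preleukemic_138, 447 in preleukemic_445, 133.5 in preleukemic_451 and 493.5 in preleukemic_479. The level in leukemic_28 was thus below 1 CPM there and 41.4 CPM in the first table, with Wrap53 at 0.0759 CPM there and 4.29 CPM in the first. Mdm4 was at 361 CPM in leukemic_26, 282 in leukemic_28 and 572 in leukemic_39, and at 262 CPM in preleukemic_138, 666 in preleukemic_445, 210.4 in preleukemic_451 and 273 in preleukemic_479. Mdm4 in preleukemic_445 was the highest of the 7 mice in that table and the lowest of its group in the first. The log2 fold change of Mdm4 between TgSpi1FA−/− leukaemic and TgSpi1FA+/+ preleukaemic cells was 0.20 in the second table, as given above, and the ranges of Mdm4 overlapped. Usp7 was at 173 to 311 CPM in leukaemic and at 345 to 492 CPM in preleukaemic cells, again without overlap, with a log2 fold change of −0.72 (edgeR adjusted p = 0.207). Cdkn2a was at 8.70 CPM in preleukemic_445 and at 70.0 to 193 CPM in the other 6 mice. TgSpi1FA−/− preleukaemic mice were not in this table.

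**Figure D5:**
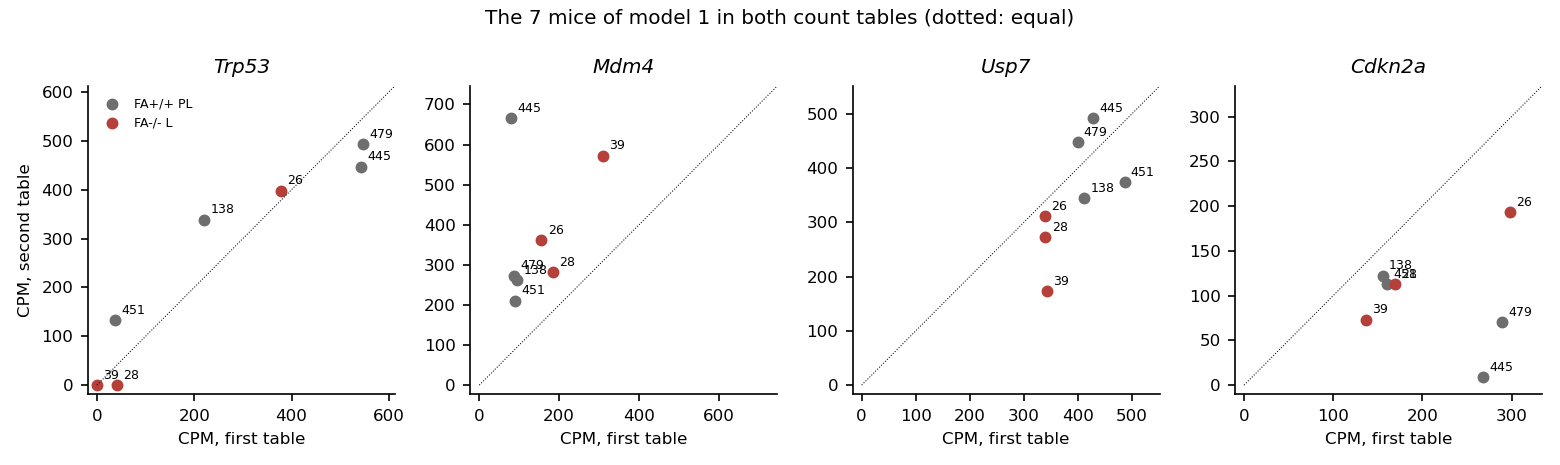
Level of Trp53, Mdm4, Usp7 and Cdkn2a in the 7 mice of model 1 found in both count tables, in CPM of the first table on the horizontal and of the second on the vertical axis, with equal values on the dotted line. Mouse preleukemic_445 lies far from the line for Mdm4 (79.9 and 666 CPM) and Cdkn2a (268 and 8.70 CPM), and leukemic_28 and leukemic_39 lie near 0 on the vertical axis for Trp53.

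The genes whose levels ran most like those of each member were taken from the genes tested in both models, by Pearson's r of log2(CPM + 0.1) over the 10 libraries of model 1, which share groups and strain, and r is given without a test. For Trp53 they were Cln6 (r = 0.96), Prkcd (0.95) and Nuf2 (0.95), with r of 0.51, 0.45 and −0.35 over the 7 libraries of model 2. For Mdm4 they were Bbc3 (0.98), Rtf2 (0.98) and Dnm1 (0.97), with r of −0.02, −0.75 and 0.30 in model 2. For Mdm2 they were Gpatch2 (0.92), Hsd17b7 (0.92) and Bpnt1 (0.91), all on chromosome 1, with r of −0.72, −0.08 and 0.04 in model 2. For Usp7 they were Iqcd (0.95), Whamm (0.92) and Atp11b (0.91), with r of 0.34, 0.61 and −0.79 in model 2. For Cdkn2a they were Lrrfip2 (0.96), Tigit (0.95) and Fam102a (0.94), with r of 0.06, −0.06 and −0.54 in model 2, and for Ppm1d they were Ednra (0.96), Acsf3 (0.93) and Lrrn3 (0.89), with r of 0.40, −0.05 and −0.39. The genes were chosen for their r in model 1, so the values of the models are not comparable.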

How the data were processed

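The authors deposited raw counts per Ensembl gene, without normalization, as tables of model 1, model 2 and a second table of 7 mice of model 1. The submitters' processing notes name bcl2fastq 2.17.1.14, STAR 2.5.3a, HTSeq 0.6.1p1 and the mm10 and GRCm38 builds. The strand setting of the counting is not given in the sources used here, so antisense reads could be included. Model 2 was deposited more than once, and 1 copy was read.

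Groups followed the sample titles. Counts were filtered (filterByExpr), TMM-normalized and tested in edgeR 4.0.16 (R 4.3.3) by glmQLFit and glmQLFTest, with 1 fit per model, and in a joint fit of all 17 libraries for the difference between models. The threshold was an adjusted p of 0.05 with a fold change of 1.5. By the labels each library is 1 mouse, so p-values are meant to measure the spread between mice. For preleukemic_445 and preleukemic_479, far more alike than other pairs, independence was not shown. Both enter the shared estimate of spread in the fits of model 1 and of all 17 libraries. Ratios were tested with exact permutation tests (scipy 1.17.1). Positions came from GENCODE M21 (GRCm38), and promoters from RefSeq. The chain was tested on simulated counts. The members and lists were chosen with earlier results of these data known. Named list genes were up to 6 called genes with the largest change per comparison, and Cdkn1a, Bbc3, Cdkn2b, Mtap and Wrap53. Genes around Mdm4 were followed by library and by bin after their values were seen. The list counts without each library were added after the data were seen. Alternatives were DESeq2 1.42.0 (size factors, Wald test), no filter, only the compared groups, preleukemic_445 and preleukemic_479 summed, the second table, and leaving out each library.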

Additional observations from a re-analysis of the deposited data

Results flagged for a closer look

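Among 22 groups of 4 mice tested for the 6 members and 5 target or neighbouring genes, 3 held a library far from the other 3 (by Dixon's test at the 95% level), and chance flags about 1 group in 20. Ppm1d was at 54.9 CPM in preleukemic_138, above the other TgSpi1FA+/+ preleukaemic mice of model 1 (37.8 to 38.8 CPM). In preleukaemic cells of model 2, preleukemic_812 was the highest for Cdkn2a (289 CPM, against 108 to 136 CPM) and for Cdkn1a (72.2 CPM, against 27.97 to 31.7 CPM). preleukemic_812 also had the lowest levels of Trp53, Mdm4 and Usp7 of its group.

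The leukaemic change differed between the models, tested as an interaction in edgeR, for 5 of the listed regulators and targets. Of 41 other regulators tested, 3 were called higher and 1 lower. Of 40 induced genes tested, 1 was called lower. Over all genes tested, 4.61% were called. The change in model 1 exceeded that in model 2 by 3.19 on the log2 scale for Hipk2, a kinase that phosphorylates p53 (adjusted p = 0.0381), by 1.65 for Ncl (adjusted p = 0.0285) and by 1.15 for Cop1, a ubiquitin ligase (adjusted p = 0.0484). It was lower in model 1, by −2.13 for Ccng1 (adjusted p = 0.0378) and by −1.19 for Chek2 (adjusted p = 0.0390). Strain and library protocol differ between the models as well and cannot be told apart from this difference. The count of all genes called in this test was 673 and fell to 1 without leukemic_28, to 2 without leukemic_39 and to 4 without preleukemic_77 or preleukemic_224.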

How the results depend on the processing

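Mice carry different numbers in each group. No paired analysis was possible because the groups share no replicate number. Of 372 alternative values for 30 log2 fold changes of members, 332 kept their direction and their side of the threshold. The direction of Mdm4 did not turn in any alternative for TgSpi1FA−/− leukaemic cells. Member calls: between TgSpi1FA−/− leukaemic and preleukaemic cells 0 to 1 with a library left out; against TgSpi1FA+/+ preleukaemic cells 0 to 1, 0 with preleukemic_445 and preleukemic_479 summed and 0 in the second table; in model 2, 1 with DESeq2's Wald test; for the difference between models 0 to 2, and 2 with DESeq2 size factors or the Wald test.

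Genes called between TgSpi1FA−/− leukaemic and preleukaemic cells were 1782, 3099 with the Wald test and 414 (without leukemic_28) to 2319 (without leukemic_26), with 418 to 833 without preleukemic_224, leukemic_39, preleukemic_77 or preleukemic_40. Against TgSpi1FA+/+ preleukaemic cells they were 939, 2245 with the Wald test, 122 with preleukemic_445 and preleukemic_479 summed, 267 in the second table and 53 (without leukemic_28) to 1911 (without leukemic_26), with 97 to 379 without preleukemic_445, preleukemic_479, leukemic_39 or preleukemic_451 and 1536 without preleukemic_138. Between genotypes they were 1, 4 without the filter, 256 with the Wald test and 1 to 16 (without preleukemic_451). In model 2 they were 0, 470 with the Wald test and 0 to 1. For the difference between models they were 673, 279 without the filter, 2037 with the Wald test, 303 with preleukemic_445 and preleukemic_479 summed and 1 (without leukemic_28) to 1359 (without preleukemic_812). Without a library, the difference in the log2 ratio of Mdm4 to Mdm2 ranged from −0.18 to 0.014 between genotypes.

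Direction turned only for changes that were not called. Trp53 between genotypes (−0.07) was 0.25 with preleukemic_445 and preleukemic_479 summed and ranged from −0.64 to 0.50 with a library left out, and its difference between models (−0.05) from −2.81 to 0.54. Mdm2 and Mdm4 between genotypes ranged from −0.13 to 0.035 and from −0.26 to 0.018. Ppm1d against TgSpi1FA+/+ preleukaemic cells was 0.0010 with DESeq2 size factors and ranged from −0.11 to 0.12. Cdkn2a in that comparison was 0.022 with preleukemic_445 and preleukemic_479 summed and 0.69 in the second table, and ranged from −0.51 to 0.12, and against TgSpi1FA−/− preleukaemic cells from −0.023 to 0.77. In model 2, Mdm4 ranged from −0.56 to 0.000058, Ppm1d from −0.057 to 0.42 and Cdkn2a from −0.64 to 0.17. The cause was not tested.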
